A study of Mus musculus with 6 samples.

Results

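The genes examined here are targets of p53 with Trp53, the gene of p53 itself, 38 in all. They were chosen by name from what is known of the p53 response, but with earlier results of these data known. They were sorted by function into feedback, arrest, death, repair and metabolism. Of these, 34 were measured by a probeset annotated to no other gene, as were 19933 genes on the arrays in all. RNA came from NCU10K, an immortalised mouse neural crest cell line, 48 h after transfection with a single Nedd4 siRNA (3 arrays) or a low GC control siRNA (3 arrays). Both groups were grown in DMEM with foetal calf serum and transfected with the same reagent, and there was no untransfected group and no rescue. All arrays come from 1 cell line, and how it was immortalised and whether its p53 is intact are not given in the sources used here. Loss of Nedd4 and other effects of that siRNA cannot be told apart.

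p53 is a transcription factor that is held low by MDM2, a ubiquitin ligase, and its relative MDM4. Stress such as DNA damage frees p53, which then switches on genes that stop the cell cycle, start cell death, repair DNA, adjust metabolism and, in a loop, restrain p53 itself. In the neural crest, which forms the craniofacial skeleton and peripheral nervous system, excess p53 activity is known to cause cell loss and craniofacial defects in mice.

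Of the 34 measured p53 target genes, 16 were higher and 1 was lower after Nedd4 knockdown, and 17 did not pass the test. The largest rises were those of Eda2r (2.33-fold), Plk2 (2.33-fold), Fas (2.22-fold) and Trp53inp1 (2.11-fold), followed by Ccng1 (1.72-fold). The gene that fell was Plk3 (1.29-fold). A gene was called where the adjusted p from limma was under 0.05 across all probesets. By that rule 9.62% of all 19933 genes were higher and 9.13% lower, 18.7% in either direction, while 47.1% of the p53 targets were higher and 2.94% lower. The median log2 fold change, always Nedd4 siRNA over control siRNA, was 0.21 over the 34 genes and −0.02 over all genes. Without the dimmest 25% of probesets it was 0.37 over the p53 targets left and −0.01 over all genes left, and without the dimmest 50% it was 0.39 and 0.03. A log2 fold change above 0 was found for 26 of the 34, against 45.4% of all genes. That share was not computed among the brighter 50% of probesets, where 29 of the 34 lay. The siRNA target came first as a check. Nedd4 itself was at 10.45, 10.94 and 10.68 on the log2 scale in the arrays of Nedd4 siRNA replicates 1, 2 and 3, against 12.24, 12.35 and 12.34 in those of control siRNA, a fall of 3.07-fold (log2 fold change −1.62, SE 0.12, adjusted p = 3.16e-06).

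**Figure D1:**
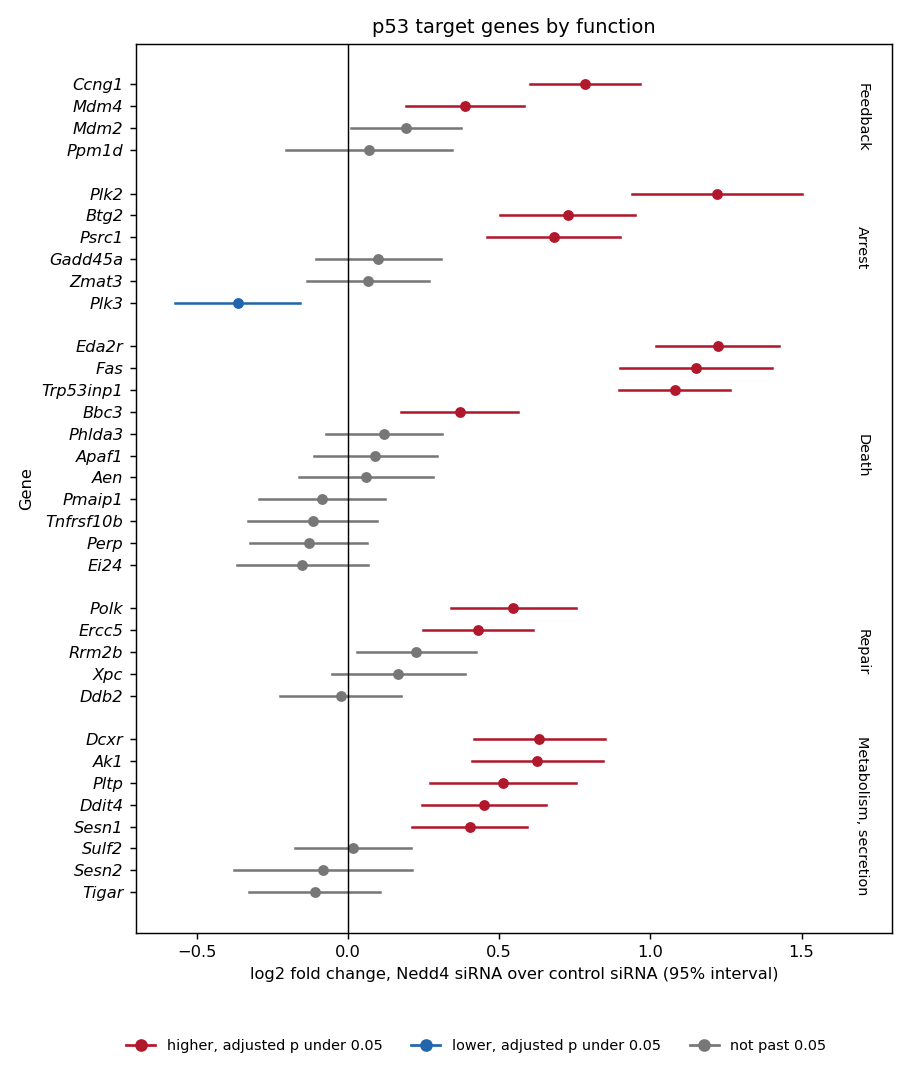
Log2 fold change of each measured p53 target gene, Nedd4 siRNA over control siRNA, by function; points show the estimates (limma, n = 3 arrays for each siRNA), bars their 95% intervals, and colour shows the call at an adjusted p under 0.05. The values run from −0.36 for Plk3 to 1.22 for Eda2r, and each function holds both called and uncalled genes.

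The values are the authors' log2 expression values, with 1 array per replicate from separate experiments, array medians between 6.28 and 6.35 and a median residual SD of 0.12 for a probeset. The number of arrays limits the precision. Markers of the cell line were present but moved with the knockdown. Of 11 measured neural crest and Schwann cell markers 6 were lower and 2 higher. Of the 11, 10 lay in the brighter 50% of probesets, where 16% of all genes were lower and 17.4% higher. The mean log2 level of the 11 lay between 8.82 and 8.93 in Nedd4 siRNA arrays and between 9.10 and 9.15 in control siRNA arrays. Sox10, a defining transcription factor of the lineage, averaged 10.64 with Nedd4 siRNA and 11.07 with control siRNA, while Tfap2b was among the dimmest 25% of probesets. The methods' t-test did not call Sox10 (adjusted p = 0.0880). Twist1, 1 of the 2 higher markers, lost its call under 10 of the 18 alternatives tried. The other, Sox9 (log2 fold change 0.66, limma adjusted p = 0.000337), kept its call under 17 of the 18. Erbb3 had the largest fall of the 11 markers (−1.14, limma adjusted p = 2.93e-05) and kept its call under all 18. At the protein level the authors reported more ERBB3 and less SOX10 after Nedd4 knockdown in this line, and the arrays measure mRNA only. Of 6 smooth muscle and fibroblast markers 2 were higher, Pdgfra and Dcn, with a mean level of 6.66 to 6.77 in Nedd4 siRNA arrays and 6.39 to 6.43 in control siRNA arrays. All 3 endothelial markers were among the dimmest 25%, and neither these nor the 4 melanocyte markers were called. Of 3 neuron markers 1 was higher (Tubb3, log2 fold change 0.35), and of 3 leukocyte markers 1 was lower (Cd68, −1.97). Over all genes 9.62% were higher and 9.13% lower. What part these shifts have in the p53 target values was not tested.

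Trp53, Bax and Gdf15 are not analysed here. Cdkn1a, which encodes the cell cycle inhibitor p21, shares its probeset with a second annotated gene, so no level was assigned to it. The other 34 genes were each read by 1 probeset. Their signals were mostly bright, with 29 in the brighter 50% of probesets, and 15 of these 29 were higher, against 17.4% of the 10319 genes with such signals. Brightness was the mean over all 6 arrays, so the values of both groups set it. Fas, 1 of the 15, counted as bright through its Nedd4 siRNA arrays. In control siRNA arrays it was at 5.86 to 6.16, below the lowest array median of 6.28. Pmaip1, Perp and Tnfrsf10b were among the dimmest 25%, where a change is hard to see.

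p53 binds DNA as a tetramer at paired copies of a decamer. Promoters from RefSeq (GRCm38.p6), covering 250 bases before to 50 after a gene start, were held for 26 of the 34 genes. A match to the paired site, with at most 2 mismatches, stood in 1 of the 26, that of Ccng1, against 0.807% of the 27025 genes with a promoter in the table. An exact match to a single decamer of the consensus, on either strand, stood in 8 of the 26 (30.8%), against 9.55% of all genes; 1 of the 8 lies inside the paired site of Ccng1. It was found in 3 of the 15 genes that rose (20%) and in 5 of the 11 that did not (45.5%). A gene was counted if any of its promoters matched, so the length searched per gene differed. There were 37 promoters for the 26 genes and 32851 for the 27025, with 24 for the 15 genes and 13 for the 11. Such matches describe the letters only, and sites further from the start or within introns were not searched. The sequences below show the paired site of Ccng1, single decamers of Sesn1 and Polk, which also rose, and those of Mdm2 and Aen, which did not pass, each read 5′ to 3′ on the strand of its gene with the matched decamers in capitals.
Ccng1, chr11:40755452-40755491, minus strand: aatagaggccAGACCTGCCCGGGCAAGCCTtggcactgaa
Sesn1, chr10:41887256-41887285, plus strand: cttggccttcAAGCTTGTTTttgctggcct
Polk, chr13:96519399-96519428, minus strand: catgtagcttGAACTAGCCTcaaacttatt
Mdm2, chr10:117710925-117710954, minus strand: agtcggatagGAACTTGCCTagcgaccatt
Aen, chr7:78895927-78895956, plus strand: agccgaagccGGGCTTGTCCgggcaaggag
The paired site of Ccng1 began 195 bases before its gene start and held 1 mismatch with no bases between the decamers.

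Among the 4 feedback genes 2 rose and none fell, with log2 fold changes between 0.07 and 0.78. Ccng1, which encodes cyclin G1, a partner of protein phosphatase 2A that acts on MDM2, was at 12.75, 12.77 and 12.70 in Nedd4 siRNA arrays, against 11.95, 12 and 11.92 in control siRNA arrays. The groups lay 0.70 apart at their nearest arrays, while the SD within a group was 0.040 at most (log2 fold change 0.78, SE 0.083, adjusted p = 4.75e-05). Mdm4, whose protein binds p53 and blocks its activity, was at 9.85, 9.77 and 9.71 with Nedd4 siRNA, against 9.31, 9.37 and 9.49 with control siRNA (0.39, SE 0.090, adjusted p = 0.00973). The call of Mdm4 was lost without Nedd4 siRNA replicate 1 (adjusted p = 0.0696) and by the methods' t-test (adjusted p = 0.0538). Mdm2, the main ubiquitin ligase of p53 and a standard readout of its activity, did not pass. It was at 10.95, 10.94 and 10.85 with Nedd4 siRNA, against 10.75, 10.71 and 10.70 with control siRNA. These groups did not overlap, but their nearest arrays were only 0.10 apart, and the difference was 0.19 (95% interval 0.01 to 0.38, adjusted p = 0.165). Ppm1d, encoding the phosphatase WIP1 that switches off p53 signalling, differed by 0.07 (95% interval −0.20 to 0.34), with a control SD of 0.27.

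Genes of cell cycle arrest and growth control changed in both directions, with 3 of 6 higher and 1 lower. Plk2, a polo-like kinase induced by stress, was at 8.56, 8.40 and 8.17 in Nedd4 siRNA arrays, against 6.91, 7.37 and 7.19 in control siRNA arrays. It had the widest spread of the genes that rose, with an SD of 0.20 with Nedd4 siRNA and 0.23 with control siRNA, yet the groups were separated by 0.80 (log2 fold change 1.22, SE 0.13, adjusted p = 4.67e-05). Its relative Plk3 went the other way, at 5.82, 6.07 and 6.01 with Nedd4 siRNA, against 6.25, 6.36 and 6.38 with control siRNA (−0.36, SE 0.095, adjusted p = 0.0190). Plk3 is a dim probeset, and its call was lost without Nedd4 siRNA replicate 1 (adjusted p = 0.133), control siRNA replicate 2 (0.0524) or control siRNA replicate 3 (0.0643), and by the methods' t-test (0.0994).

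Btg2, an antiproliferative gene that acts in mRNA decay, was at 10.82, 10.59 and 10.59 with Nedd4 siRNA, against 10.07, 9.95 and 9.80 with control siRNA (log2 fold change 0.73, SE 0.10, adjusted p = 0.000368). Psrc1, which encodes a microtubule protein of the mitotic spindle, was at 7.74, 7.70 and 7.59 with Nedd4 siRNA, against 6.83, 7.16 and 7.0 with control siRNA (0.68, SE 0.10, adjusted p = 0.00053). In both genes every Nedd4 siRNA array lay above every control siRNA array, by 0.52 for Btg2 and 0.43 for Psrc1. Gadd45a, a stress gene of growth arrest, differed by 0.10 (95% interval −0.11 to 0.31). Zmat3, an RNA-binding protein gene that p53 activates in many cell types, differed by 0.07 (95% interval −0.13 to 0.27).

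Of 11 death genes 4 rose, 3 of these with a log2 fold change over 1, none fell and 7 did not pass. Eda2r, the receptor for the A2 isoform of ectodysplasin and a member of the TNF receptor family, was at 10.07, 9.93 and 10.00 in Nedd4 siRNA arrays, against 8.64, 8.82 and 8.87 in control siRNA arrays. The gap of 1.06 between its groups was the widest among the p53 targets (log2 fold change 1.22, SE 0.093, adjusted p = 4.73e-06). Fas, the receptor through which FAS ligand starts apoptosis, was at 7.41, 7.11 and 7.06 with Nedd4 siRNA, against 6.16, 6.11 and 5.86 with control siRNA (1.15, SE 0.12, adjusted p = 3.24e-05). Trp53inp1, a nuclear cofactor of p53 with roles in cell death and autophagy, was at 11.42, 11.33 and 11.30 with Nedd4 siRNA, against 10.28, 10.30 and 10.23 with control siRNA (1.08, SE 0.085, adjusted p = 5.84e-06). These 3 genes and Plk2 are the 4 p53 targets called with a log2 fold change of 1 or more, a mark that 118 of all genes (0.592%) reached. They stood 55th (Eda2r), 56th (Plk2), 71st (Fas) and 88th (Trp53inp1) among the 19933 genes, counted from the largest rise.

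Bbc3 encodes PUMA, a BH3-only protein that triggers mitochondrial apoptosis, and rose by less. It was at 6.35, 6.26 and 6.25 with Nedd4 siRNA, against 5.94, 6.0 and 5.81 with control siRNA (log2 fold change 0.37, SE 0.089, adjusted p = 0.0122). Like Plk3 it is a dim probeset, the only one in the dimmer 50% among the genes that rose, and its call was lost without Nedd4 siRNA replicate 1 (adjusted p = 0.0805) and by the methods' t-test (adjusted p = 0.0545). Pmaip1, encoding the BH3-only protein NOXA, differed by −0.09 (95% interval −0.29 to 0.12), and Apaf1, the scaffold of the apoptosome, by 0.09 (95% interval −0.11 to 0.29). Tnfrsf10b, the TRAIL receptor gene, differed by −0.12 (95% interval −0.33 to 0.10), whereas Fas and Eda2r rose. Perp, a membrane protein of cell junctions, differed by −0.13 (95% interval −0.32 to 0.06), and Ei24, an endoplasmic reticulum protein, by −0.15 (95% interval −0.37 to 0.07). Phlda3, an inhibitor of AKT, differed by 0.12 (95% interval −0.07 to 0.31), and the apoptosis enhancing nuclease gene Aen by 0.06 (95% interval −0.16 to 0.28). All 7 had overlapping groups. Pmaip1, Perp and Tnfrsf10b were among the dimmest probesets, where a change is hard to see. Their intervals therefore do not bound the change in mRNA. Among Apaf1, Ei24, Phlda3 and Aen the highest upper bound was 0.31, for Phlda3. That bound lay below the lower bounds for Trp53inp1 and Fas (0.90 each) and Eda2r (1.02).

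Of 5 repair genes 2 rose. Polk, a DNA polymerase that copies past damaged bases, was at 8.82, 8.74 and 8.78 in Nedd4 siRNA arrays, against 8.09, 8.23 and 8.38 in control siRNA arrays (log2 fold change 0.55, SE 0.095, adjusted p = 0.00157). Ercc5, the nuclease XPG of nucleotide excision repair, was at 8.80, 8.75 and 8.73 with Nedd4 siRNA, against 8.28, 8.37 and 8.34 with control siRNA (0.43, SE 0.083, adjusted p = 0.00324). The nearest arrays of the groups were 0.36 apart for either gene. The damage sensors of the same repair pathway did not pass, with Xpc at 0.17 (95% interval −0.05 to 0.39) and Ddb2 at −0.02 (95% interval −0.22 to 0.18). Rrm2b encodes the p53-inducible subunit of ribonucleotide reductase, which supplies nucleotides for repair. It was at 7.26, 7.23 and 7.19 with Nedd4 siRNA, against 6.87, 7.08 and 7.05 with control siRNA. Its groups did not overlap, but the difference of 0.23 missed the threshold (95% interval 0.03 to 0.42, adjusted p = 0.125).

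Of 8 measured genes of metabolism and secretion 5 rose and none fell. Dcxr, which reduces carbonyl compounds and L-xylulose, was at 8.72, 8.93 and 8.74 in Nedd4 siRNA arrays, against 8.08, 8.31 and 8.10 in control siRNA arrays (log2 fold change 0.63, SE 0.099, adjusted p = 0.000761). Ak1, an adenylate kinase that balances adenine nucleotides, was at 10.73, 10.69 and 10.65 with Nedd4 siRNA, against 10.13, 10.19 and 9.87 with control siRNA (0.63, SE 0.10, adjusted p = 0.000842). The nearest arrays of the groups were 0.41 apart for Dcxr and 0.46 for Ak1. Pltp, a phospholipid transfer protein of the plasma, was at 7.99, 8.11 and 7.84 with Nedd4 siRNA, against 7.31, 7.67 and 7.42 with control siRNA (0.51, SE 0.11, adjusted p = 0.00643). Its gap of 0.17 was the narrowest among the genes that rose, and the call was lost by the methods' t-test (adjusted p = 0.119).

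The other genes of this class that rose were Sesn1 and Ddit4. Sesn1, a sestrin that restrains the growth kinase mTORC1, was at 8.45, 8.42 and 8.51 with Nedd4 siRNA, against 8.09, 8.12 and 7.96 with control siRNA (log2 fold change 0.40, SE 0.087, adjusted p = 0.00645). Ddit4, encoding REDD1, was at 10.04, 10.21 and 9.97 with Nedd4 siRNA, against 9.61, 9.71 and 9.55 with control siRNA (0.45, SE 0.095, adjusted p = 0.00544), a call lost by the methods' t-test (adjusted p = 0.0644). Sesn2, the sestrin that also answers to the stress factor ATF4, differed by −0.08 (95% interval −0.38 to 0.21), with SDs of 0.17 with Nedd4 siRNA and 0.28 with control siRNA. Tigar, a phosphatase that slows glycolysis, differed by −0.11 (95% interval −0.33 to 0.11). Sulf2, which trims sulphate from heparan sulphate outside the cell, differed by 0.02 (95% interval −0.18 to 0.21).

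**Figure D2:**
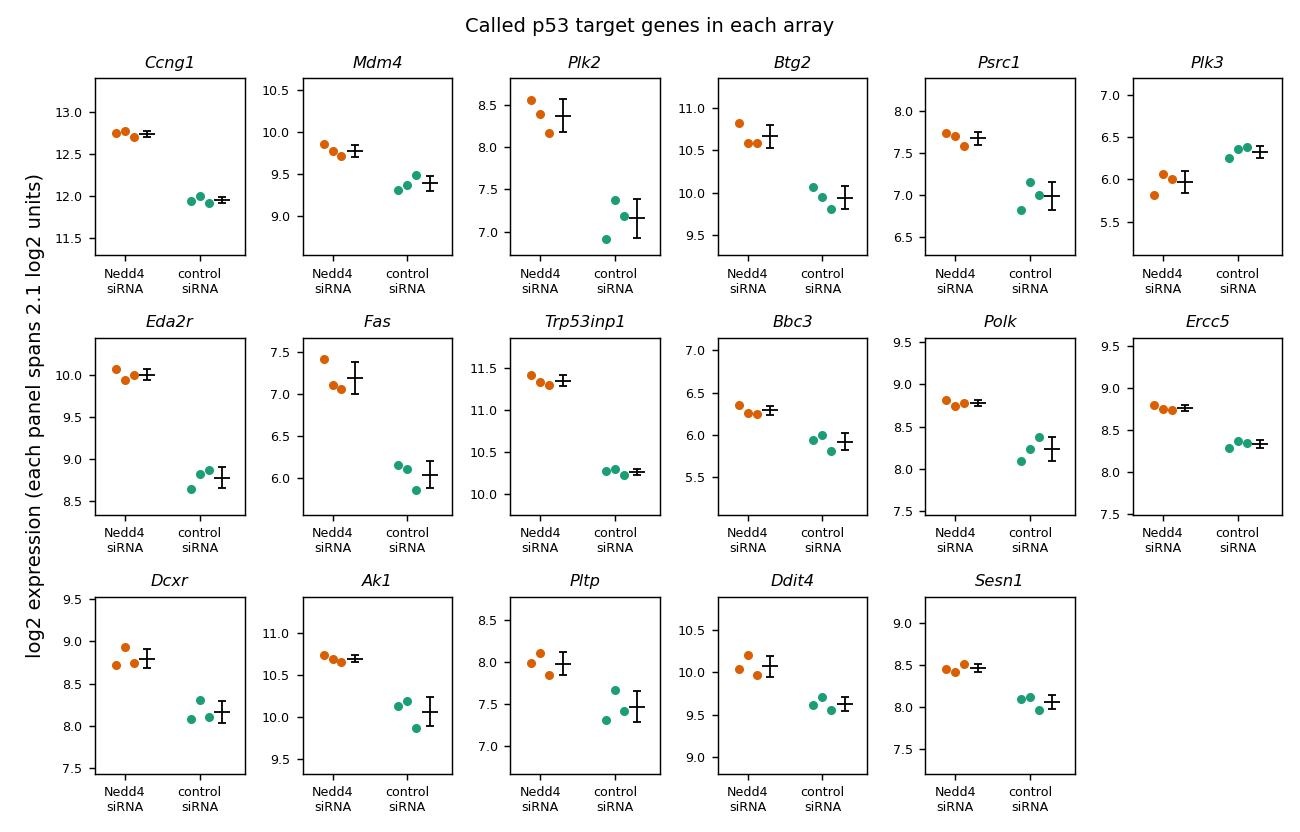
Log2 expression of the 17 called p53 target genes in each array, with Nedd4 siRNA in orange and control siRNA in green (points, replicates 1 to 3 from left to right) and the mean ± SD in black (n = 3). In the panels of the 16 genes that rose every Nedd4 siRNA array lies above every control siRNA array, by 0.17 for Pltp up to 1.06 for Eda2r, and in the Plk3 panel the order is turned round.

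Across the 34 genes, Nedd4 siRNA and control siRNA arrays did not overlap for 18 with Nedd4 siRNA higher and for 1 with Nedd4 siRNA lower, where 16.1% and 15.6% of all genes did so. The 18 are the 16 called genes with Mdm2 and Rrm2b. Within the Nedd4 siRNA group, replicate 1 had the single highest value for 11 of the 16 genes that rose, and replicate 3 the single lowest for 11. Replicate 1 also had the least Nedd4 mRNA, at 10.45, but replicate 3 was not the one with the most. A tie to the level of Nedd4 was not tested, and such counts over all genes are not given here. Without Nedd4 siRNA replicate 1, 1194 of all genes were higher, against 1918 with every array. With any other single array left out, between 1548 and 2004 were higher. Within the control siRNA group, replicate 2 was the single highest for 11 of the 16 and the single lowest for 0. Each of the 16 rises was called with any 1 array left out, except those of Mdm4 and Bbc3.

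Further p53 targets, from a list without the genes above, were called in both directions, with 15 of 58 higher (25.9%) and 9 lower (15.5%). Cmbl, a hydrolase gene (log2 fold change 0.90, SE 0.097, adjusted p = 5.10e-05), and Fbxw7, a ubiquitin ligase adaptor that marks cyclin E and MYC for destruction (0.82, SE 0.082, adjusted p = 3.28e-05), rose. Cd82, a tetraspanin, fell (−1.19, SE 0.10, adjusted p = 9.46e-06), as did Igfbp3, which binds insulin-like growth factors (−0.94, SE 0.10, adjusted p = 6.00e-05). The median of this list was 0.03, and 48 of its genes lay in the brighter 50% of probesets, where the shares over all genes were 17.4% higher and 16% lower. Without Nedd4 siRNA replicate 1 it held 13 called genes in place of 24.

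Genes that act on p53 were called equally in each direction, 5 of 35 higher and 5 lower (14.3% each), with a median of 0.02. Of these genes 33 lay in the brighter 50% of probesets, where 17.4% of all genes were higher and 16% lower, so the shares were no larger than in that background. Brd7, a chromatin protein that serves p53 as a cofactor (1.23, SE 0.10, adjusted p = 7.31e-06), Rchy1, encoding the p53 ubiquitin ligase PIRH2 (0.73, SE 0.091, adjusted p = 0.000143), and Dyrk2, a kinase of p53 (0.64, SE 0.10, adjusted p = 0.000751), rose. Sirt1, a deacetylase of p53, fell (−0.56, SE 0.085, adjusted p = 0.000625). Also called were Atm (−0.64), Mdc1 (−0.44), Chek1 (−0.42) and Hipk2 (−0.39), which were lower, and Ppp1r13l (0.51) and Trp53bp2 (0.43), which were higher. The rises thus included restrainers of p53 as well as its helpers.

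When p53 induces p21, the DREAM complex represses genes of DNA replication and mitosis. Of 38 such genes, all in the brighter 50% of probesets, 9 were lower (23.7%) and 4 higher (10.5%), with a median of −0.12, against 16% lower and 17.4% higher among all genes with such signals. Cdc25a, a phosphatase that drives entry into S phase (−0.94, SE 0.11, adjusted p = 7.31e-05), the mitotic checkpoint gene Bub1b (−0.90, SE 0.096, adjusted p = 4.96e-05) and the nucleotide synthesis gene Tyms (−0.75, SE 0.15, adjusted p = 0.00335) fell. Kif20a, a kinesin of cytokinesis, rose (0.47, SE 0.088, adjusted p = 0.00255). Tyms missed the threshold in the methods' t-test (adjusted p = 0.145). The count of called genes in this list, 13, was 6 without Nedd4 siRNA replicate 1 and 8 without control siRNA replicate 3.

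Ddit4 and Sesn2 are known targets of ATF4 too. Among 29 other ATF4 and stress response genes 5 were higher (17.2%) and 3 lower (10.3%), with a median of 0.17. As 27 of the 29 lay in the brighter 50% of probesets, with 17.4% of all genes higher and 16% lower there, these shares were no larger than in that background. The median over all genes with such signals was 0.03. A log2 fold change above 0 was found for 20 of the 29, against 45.4% of all genes. The groups did not overlap for 12 with Nedd4 siRNA higher and for 5 with it lower, against 16.1% and 15.6% of all genes. For these measures no share was computed within the brighter 50% of probesets, so no excess over that background is read from them. Nupr1, a stress-induced chromatin protein (1.46, SE 0.11, adjusted p = 3.69e-06), and the tRNA synthetase genes Cars (0.82, SE 0.10, adjusted p = 0.000177) and Sars (0.41, SE 0.091, adjusted p = 0.00702) rose, while Mthfd2, a mitochondrial folate enzyme, fell (−1.06, SE 0.15, adjusted p = 0.000316). The methods' t-test did not call Mthfd2 (adjusted p = 0.0725) or Sars (0.0536). The 8 called genes of the list were 4 without Nedd4 siRNA replicate 1 and 5 without control siRNA replicate 3.

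**Figure D3:**
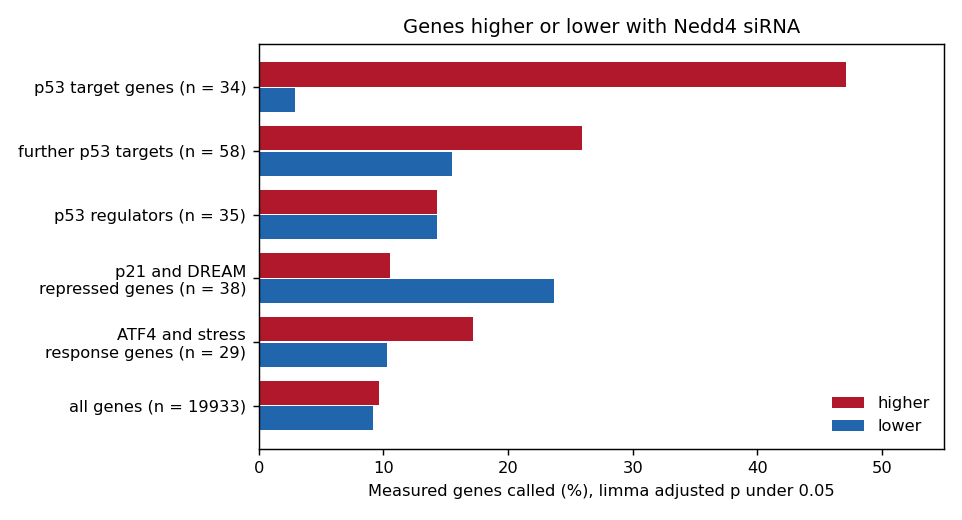
Share of measured genes called higher (red) or lower (blue) with Nedd4 siRNA over control siRNA at a limma adjusted p under 0.05, for the p53 target genes, 4 related lists and all genes (n, genes measured; 3 arrays per siRNA). The share called higher is 47.1% for the p53 targets, 25.9% for further p53 targets and 9.62% for all genes, and the share called lower is largest for the genes repressed through p21 and DREAM, at 23.7%.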

How the data were processed

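Log2 expression values of 28440 probesets from 6 Affymetrix GeneChip Mouse Gene 1.0 ST arrays were used as the authors deposited them. The authors used Partek Genomics Suite, version 6.5 by the submitters' processing notes: background was corrected by RMA, values were adjusted for GC content, and probes were averaged into probesets. A normalization between arrays is not stated in the sources used here, and none was added. The platform annotation gives 1 gene symbol to 21780 probesets, several to 1618 and none to 5042. Only probesets with 1 symbol name a gene, which is read by its brightest one.

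Nedd4 siRNA was compared with control siRNA in limma 3.58.1 (R 4.3.3; lmFit, eBayes, no covariate); p-values were adjusted by Benjamini-Hochberg across every probeset and called under 0.05. The methods' t-test is the ANOVA they name, run per probeset with the same adjustment. The fit was tested on simulated data. With 3 arrays against 3, an exact permutation test of a single gene cannot go below p = 0.1, so none is given. Python 3.11.15, pandas 2.3.3 and Matplotlib 3.10.9 were used for counts, promoter matches and figures.

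Members and gene lists were chosen with earlier results of these data known, so no list was tested as a set. All members are named. Other lists give up to 4 called genes with the smallest p, except those of the p53 regulators and the neural crest markers. For the p53 regulators all called genes are named. For the neural crest markers only Sox10, Sox9, Erbb3, Tfap2b and Twist1 are named, chosen after their values were seen. The p53 decamer was matched exactly, and its pair with a spacer of at most 1 base. Alternatives comprised that t-test, a trended robust eBayes, weighting of arrays, a replicate block, quantile normalization or median centring, removal of dim probesets, other probeset rules and thresholds, and omission of each array.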

Additional observations from a re-analysis of the deposited data

How the results depend on the processing

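The count of 16 p53 targets higher stayed between 12 and 16 under each alternative but one, and was 4 with a log2 fold change of at least 1 also required. By the methods' t-test it was 12, against 4.79% of all genes. The 1 lower gene was 0 by the methods' t-test, without the dimmest 50% of probesets, at an adjusted p under 0.01 and with a log2 fold change of at least 1. With single arrays left out, 14 to 16 were higher and 0 to 1 lower, and the median log2 fold change lay between 0.19 and 0.27. That median was 0.37 without the dimmest 25% of probesets and 0.39 without the dimmest 50%. Further p53 targets called numbered 8 by the methods' t-test, 14 at an adjusted p under 0.01, 1 with a log2 fold change of at least 1, and 13 to 24 with single arrays left out. The cell cycle genes numbered 5, 5, 0 and 6 to 13 under the same settings, and the ATF4 genes 3, 4, 2 and 4 to 7. The p53 regulators numbered 1 with a log2 fold change of at least 1 and 9 to 11 with single arrays left out. Over all genes, 954 were higher and 850 lower by the methods' t-test, 1194 and 1224 without Nedd4 siRNA replicate 1, 1188 and 1174 at an adjusted p under 0.01, and 118 and 146 with a log2 fold change of at least 1.

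Uncalled genes with differences near 0 changed sign. These were Ppm1d (−0.015 without control siRNA replicate 1), Ddb2 (0.005 with quantile normalization, 0.038 without control siRNA replicate 2), Sesn2 (0.010 without Nedd4 siRNA replicate 3, 0.047 without control siRNA replicate 2) and Sulf2 (−0.022 without Nedd4 siRNA replicate 2, −0.027 without control siRNA replicate 1). With single arrays left out, the log2 fold change ran between −0.015 and 0.225 for Ppm1d, −0.072 and 0.038 for Ddb2, −0.233 and 0.047 for Sesn2, and −0.027 and 0.053 for Sulf2. Of the 17 uncalled p53 targets 14 moved by over 1.5 times with an array left out, among them Gadd45a (0.02 to 0.16), Aen (0 to 0.155), Apaf1 (0.03 to 0.15), Xpc (0.10 to 0.27) and Pmaip1 (−0.157 to −0.035). The cause was not tested. Same-numbered arrays deviated from their group means with correlations of −0.01, 0.47 and −0.01 across probesets, and only number 2 matched its own number best, so the numbers were not taken as pairs. With the replicate block the same 16 genes were higher and 1 lower, the median stayed 0.21 and Nedd4 stayed at −1.62, while over all genes 2037 were higher and 1963 lower.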

Other observations

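The probeset that the platform annotation assigns to both Cdkn1a and 4930567H12Rik, 2 genes whose signals it cannot tell apart, was at 12.44, 12.48 and 12.40 in Nedd4 siRNA arrays, against 11.66, 11.72 and 12.05 in control siRNA arrays. Its log2 fold change was 0.63 (SE 0.11, adjusted p = 0.00138 from limma), and the groups did not overlap. This value is counted in no list above, and how much of it belongs to Cdkn1a was not tested.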
